A study of Mus musculus with 15 samples.

Results

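The Map4k family and its related kinases were followed in 15 bulk RNA-Seq libraries of mouse pancreas. The members are Map4k1, which encodes hematopoietic progenitor kinase 1 (HPK1), its paralogues Map4k2, Map4k3, Map4k4 and Map4k5, and the Map4k4-like genes Mink1 and Tnik. They were chosen by name and are 7 of the 15175 genes listed with counts for MC and its control and 7 of the 49585 listed for the other groups. The question was whether the paralogues change when HPK1 or its kinase-dead form M46 is expressed in the pancreas. All 7 passed the filter on low counts in each of the 3 comparisons.

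Each library was made from RNA pooled from 3 C57BL/6 mice. MC mice (M46 transgene with Bac-cre, 2 months old, 3 libraries) were set against controls labelled B (2 months, 3 libraries). Libraries labelled HC (HPK1 transgene with Bac-cre, 4 months, 3 libraries) were set against wild-type controls (4 months, 2 libraries). The mice of these 4 groups had been given cerulein, a secretagogue that injures the acinar cells. KMC mice (M46 and Bac-cre, 9 months, 2 libraries) were set against KC mice (Bac-cre without M46, 15 months, 2 libraries), and both carry a further allele that the cerulein groups lack. The labels name pancreas as the tissue of every library, while the study describes the KMC and KC samples as pancreatic ductal adenocarcinoma. By that description, the tumour state also differs between these 2 groups and the others. Acinar markers took their highest share of counts in KC (62.9% and 72.0%), and how much carcinoma each library held was not tested. Bac-cre is a tamoxifen-inducible Cre under the elastase I promoter, so that the transgene is switched on in acinar cells, by removal of a GFP-stop cassette. The endogenous Map4k1 gene stays intact in all groups, and the sources used here do not state the species of the transgene's cDNA or whether its reads were counted under Map4k1.

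Total counts ran from 29766575 to 38745907 per library. Acinar markers (36 or 37 genes found) took 44.6% to 58.5% of the counts in the controls of MC, 39.8% to 49.5% in MC, 62.9% to 72.0% in KC and 26.3% to 51.5% in KMC, but 7.17% to 9.12% in the controls of HC and 6.03% to 9.40% in the libraries labelled HC. In the HC comparison, the stomach markers (8 of 8 listed) summed to 8113 to 8162 CPM (counts scaled to a common library size, by TMM within each table) in the libraries labelled HC and to 1575 to 3117 CPM in their controls. By Xist and 4 Y-linked genes, the library labelled HC replicate 3 had a male pattern and the other 4 of that comparison a female one. Both KC libraries had the male pattern and both KMC libraries the female one, so that in KMC against KC the genotype, the sex and the age cannot be told apart.

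MAP4K proteins are serine/threonine kinases of the germinal centre kinase group, named for their place upstream of MAP3 kinases in the pathways that lead to JNK. Each has a kinase domain at its N-terminus and a citron homology domain near its C-terminus. HPK1 is best known in lymphocytes, where it is recruited by adaptor proteins such as SLP-76 and dampens antigen receptor signalling. Map4k4, Mink1 and Tnik form a subfamily of their own that acts on cytoskeleton, Wnt and Hippo signalling, while Map4k2, Map4k3 and Map4k5 are closer to HPK1 and act in stress, nutrient and TNF receptor signalling.

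The M46 mutant replaces the lysine that holds ATP in the kinase domain of HPK1, and the same lysine is encoded in every member. The stretch around it is shown in its unmutated form, because it holds the codon that M46 changes and that stays intact in the paralogues. Each sequence is 45 bases of the coding strand of the GENCODE M21 transcript on GRCm38, written 5′ to 3′, with the aligned lysine codon in capitals.
Map4k1: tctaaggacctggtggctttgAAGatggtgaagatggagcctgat
Map4k2: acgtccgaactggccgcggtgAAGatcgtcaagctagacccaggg
Map4k3: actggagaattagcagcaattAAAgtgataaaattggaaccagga
Map4k5: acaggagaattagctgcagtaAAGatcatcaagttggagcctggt
Map4k4: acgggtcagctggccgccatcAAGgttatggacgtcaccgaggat
Mink1: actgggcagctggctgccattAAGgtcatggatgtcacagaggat
Tnik: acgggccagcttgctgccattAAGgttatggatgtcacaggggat
The codon is number 46 in Map4k1, 45 in Map4k2 and Map4k3, 49 in Map4k5 and 54 in Map4k4, Mink1 and Tnik. Over the 45 bases, Map4k1 had 27 bases identical with Map4k2, 27 with Map4k5, 23 with Map4k3, 22 with Mink1, 20 with Map4k4 and 19 with Tnik. Map4k3 is the only member with AAA in place of AAG. Over the first 300 codons, Map4k1 was 64.7%, 63.6% and 63.0% identical in bases with Map4k2, Map4k5 and Map4k3, and 55.4%, 55.0% and 54.1% with Map4k4, Mink1 and Tnik. Map4k4, Mink1 and Tnik were 77.9% to 78.9% identical with each other. No window of 100 bases, the read length, was shared between any of the members' transcripts, so that reads of 1 member do not match another exactly.

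On GRCm38, Map4k1 lies on chr7:28982050-29003279 on the plus strand, and its codon 46 lies in exon 2 at chr7:28983251-28983253. Map4k2 lies on chr19:6341135-6355615 on the plus strand, Map4k3 on chr17:80580512-80728485 on the minus strand and Map4k5 on chr12:69803750-69893200 on the minus strand. Map4k4 lies on chr1:39900913-40026310, Mink1 on chr11:70562881-70614483 and Tnik on chr3:28263214-28675858, all on the plus strand. Exons of Map4k5 share 548 bases with Atl1 on the opposite strand, and exons of Map4k2, Map4k3 and Mink1 share 94, 108 and 220 bases with antisense or pseudogene entries. Whether the counting used the strand is not given in the sources used here, so the counts of these 4 genes may hold reads of their antisense partners. Map4k1, Map4k4 and Tnik share no exon bases with another gene.

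Levels of different genes were compared per length, as RPKM (TMM-scaled CPM per kilobase of merged exons). Map4k4 and Mink1 had the highest levels in every library. In the controls of MC, Map4k4 had 11.96 ± 0.848 RPKM and Mink1 9.05 ± 0.140 RPKM (SD, n = 3). Map4k2 (2.38 ± 0.317), Map4k3 (2.27 ± 0.385) and Map4k5 (2.05 ± 0.331) followed within their spread of each other. Map4k1 had 1.11 ± 0.311 RPKM there, and Tnik had the lowest level, 0.0569 ± 0.0257 RPKM. In MC, Map4k4 (10.5 ± 0.582 RPKM) and Mink1 (8.60 ± 0.593 RPKM) kept these places, while Map4k1 (2.45 ± 0.248) lay between Map4k3 (2.599 ± 0.107) and Map4k2 (2.33 ± 0.453) and could not be separated from either by its spread.

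In the controls of HC, Map4k4 had 21.5 ± 0.0836 RPKM and Mink1 20.7 ± 2.28 RPKM (SD, n = 2), and the 2 ranges overlapped. In the libraries labelled HC, Mink1 (26.8 ± 0.859 RPKM, n = 3) lay above Map4k4 (17.3 ± 2.39 RPKM) in all 3. Map4k3 came next in this comparison, at 9.00 ± 0.990 RPKM in the controls and 8.18 ± 0.408 RPKM in the libraries labelled HC. Map4k1 was near Map4k2 in the controls (4.38 ± 0.893 against 4.40 ± 0.308 RPKM) and below it in all 3 libraries labelled HC (2.20 ± 0.493 against 4.18 ± 0.111 RPKM).

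In KC, the order was Map4k4 (5.94 ± 0.0143 RPKM, n = 2), Mink1 (3.93 ± 0.120), then Map4k3, Map4k2 and Map4k5 (1.58, 1.35 and 1.26) with overlapping ranges, Map4k1 (0.340 ± 0.231) and Tnik (0.0573 ± 0.0211). In KMC, Map4k1 had 2.81 ± 1.25 RPKM (n = 2), the third highest level after Map4k4 (8.47 ± 2.25) and Mink1 (5.07 ± 0.464). Tnik was the lowest member in all 15 libraries.

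**Figure D1:**
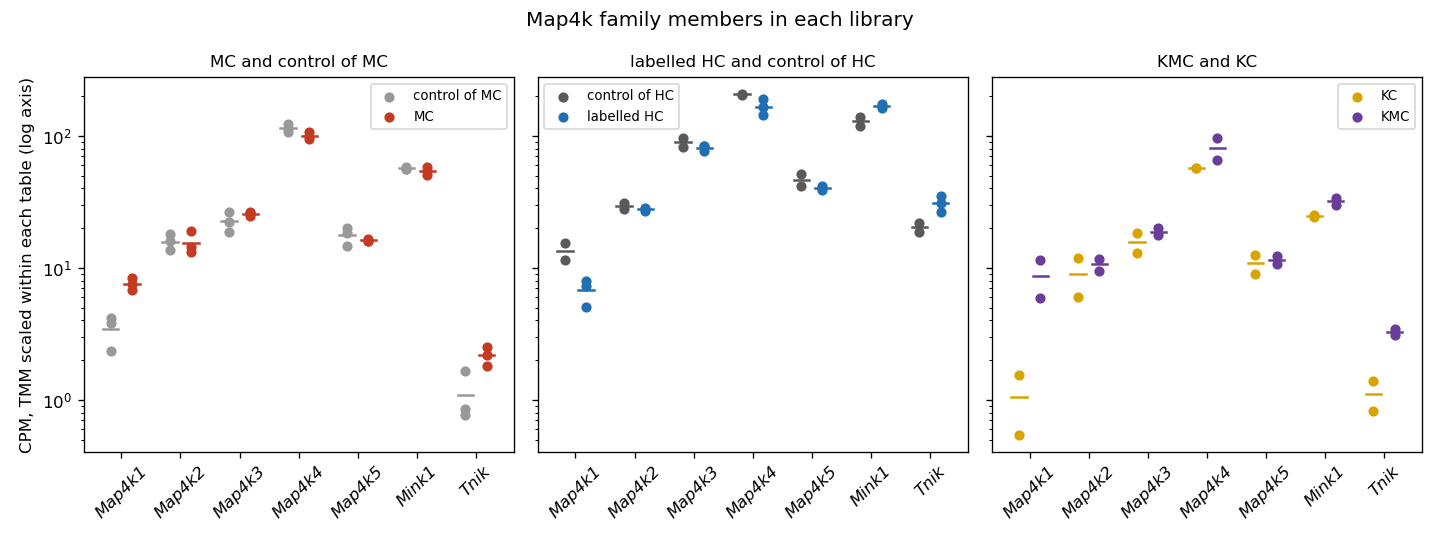
CPM (scaled by TMM within each count table, log axis) of the 7 members in each library, with 1 point per library and a bar at the mean of the group, for the 3 comparisons from left to right. Map4k1 and Tnik are separated between the groups in every panel, while Map4k2, Map4k3 and Map4k5 overlap in every panel. Of all genes, 20.7%, 33.5% and 65.3% are separated in these comparisons.

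Map4k1 encodes the protein expressed by the transgenes, but its counts are no full check of the labels, since it is not stated whether transgene reads were counted under it. In the controls of MC, Map4k1 had 3.80, 4.14 and 2.34 CPM (115, 139 and 52 counts), and in MC 8.32, 6.79 and 7.51 CPM (246, 289 and 304 counts). All MC libraries were above all controls, and 20.7% of all genes had no overlap between these groups. The log2 fold change of Map4k1 was 1.13 (SE 0.24, 95% interval 0.57 to 1.68, edgeR quasi-likelihood test with Benjamini-Hochberg adjusted p = 0.110). It therefore did not pass the threshold of 0.05 after adjustment over 13902 genes. DESeq2 gave 1.13 with an adjusted p of 0.000997, in a fit that called 4.46% of all genes.

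The controls of HC had 15.4 and 11.5 CPM of Map4k1 (537 and 450 counts), and the libraries labelled HC had 7.33, 5.05 and 7.93 CPM (248, 159 and 250 counts). The libraries labelled HC were thus all below their controls, which goes against the label of an added HPK1 transgene if its reads were counted under Map4k1. Of all genes, 33.5% had no overlap between these groups. The log2 fold change of Map4k1 was -0.99 (SE 0.25, 95% interval -1.58 to -0.40, edgeR adjusted p = 0.145). DESeq2 gave -0.998 with an adjusted p of 0.00862, in a fit that called 7.62% of all genes. Without the male-pattern library, replicate 3, the edgeR value was -1.13 (adjusted p = 0.204).

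In KC, Map4k1 had 0.545 and 1.55 CPM, from 8 and 40 counts, and in KMC 5.92 and 11.4 CPM, from 241 and 955 counts. The 8 counts of KC replicate 1 have an exact Poisson 95% interval of 3.45 to 15.8 counts, which covers counting error only. Both KMC libraries were above both KC libraries, and 65.3% of all genes had no overlap between these groups. The log2 fold change of Map4k1 was 2.99 (SE 0.60, 95% interval 1.59 to 4.39, edgeR adjusted p = 0.0796). DESeq2 gave 2.98 with an adjusted p of 9.8e-05, in a fit that called 14.9% of all genes. Leaving out 1 library leaves a single one in its group, which is then assumed to vary like the other group. Without KMC replicate 1, edgeR called it (3.37, adjusted p = 0.000102) together with 13.6% of all genes. Without KC replicate 1, KC replicate 2 or KMC replicate 2 it was not called, at 2.47, 3.98 and 2.46 (adjusted p = 0.534, 0.145 and 0.140).

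Leukocyte markers lay in the same direction as Map4k1 in each comparison, but this was not particular to them. Fibroblast markers had median log2 fold changes of 0.69 in MC, -0.45 in the libraries labelled HC and 2.42 in KMC. Endothelial markers had medians of 0.15, -0.44 and 0.25 in the same order. Acinar markers had medians below 0 throughout (-0.53, -0.12 and -1.97). The leukocyte list, headed by Ptprc, which encodes the pan-leukocyte antigen CD45, and Cd53, a leukocyte tetraspanin, had 12 of 12 genes listed and none at 0 in any library. Its summed level was 189 to 409 CPM in the controls of MC and 438 to 629 CPM in MC, 714 to 1176 CPM in the controls of HC and 434 to 647 CPM in the libraries labelled HC, and 76.4 to 119 CPM in KC and 304 to 668 CPM in KMC. Its 12 genes had 11 log2 fold changes above 0 in MC (median 0.96), 12 below 0 in the libraries labelled HC (median -0.87) and 12 above 0 in KMC (median 2.62), against medians of all genes between -0.02 and 0.03. Ptprc had log2 fold changes of 1.66, -0.95 and 2.78 in these comparisons (adjusted p = 0.0840, 0.195 and 0.0796). In bulk tissue, fewer cells of a type and less RNA per cell cannot be told apart.

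Scaled to the summed counts of the leukocyte list in place of TMM, the log2 fold change of Map4k1 was 0.31 in MC (adjusted p = 0.507), -0.26 in the libraries labelled HC (adjusted p = 0.636) and 0.82 in KMC (adjusted p = 0.408). Per CPM of the list, Map4k1 had 0.0101 to 0.0141 in the controls of MC and 0.0119 to 0.0190 in MC, 0.0131 to 0.0161 in the controls of HC and 0.0113 to 0.0136 in the libraries labelled HC. These ranges overlap in both comparisons. In KC the ratio was 0.00713, from 8 counts of Map4k1, and 0.0130, and in KMC it was 0.0195 and 0.0170. These do not overlap, and by CPM 65.3% of all genes had no overlap between these groups. Scaling to the list moved the median of all genes too, to -0.95 in MC, 0.71 in the libraries labelled HC and -2.12 in KMC. It shifts all genes of a library together, so that the part of leukocyte RNA in the differences of Map4k1 was not tested by it.

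**Figure D2:**
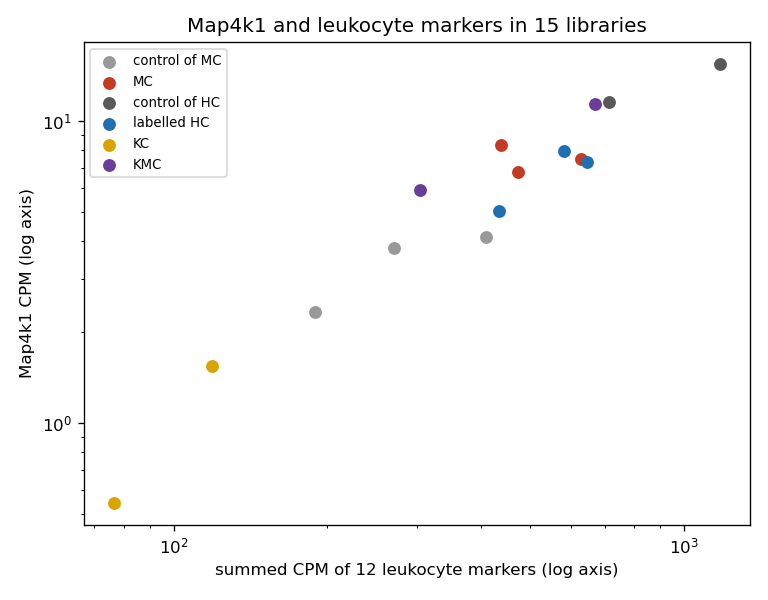
Map4k1 CPM (log axis) against the summed CPM of 12 leukocyte markers (log axis), with 1 point per library, coloured by group. The libraries run from KC, at 76.4 and 119 CPM of markers, to the controls of HC, at 714 and 1176 CPM, and Map4k1 runs from 0.545 CPM in KC replicate 1 to 15.4 CPM in the control of HC replicate 1.

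None of the 6 paralogues was called at an adjusted p of at most 0.05 by edgeR in any comparison. The share of all genes called was 0% in MC, 0.739% in the libraries labelled HC and 0.0191% in KMC. At an unadjusted p under 0.05, 1 of the 6 (Tnik) was counted in MC, 2 of the 6 (Mink1 and Tnik) in the libraries labelled HC and 1 of the 6 (Tnik) in KMC, against 14.7%, 15.9% and 25.6% of all genes. DESeq2 called Tnik in the libraries labelled HC and none of the others in any comparison, against 4.46%, 7.62% and 14.9% of all genes. The groups of libraries did not overlap for 2 of the 6 in MC, 3 of the 6 in the libraries labelled HC and 3 of the 6 in KMC, beside 20.7%, 33.5% and 65.3% of all genes.

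Map4k2, Map4k3 and Map4k5, the members nearest to HPK1 in sequence, overlapped between the groups in all 3 comparisons. Map4k2, a kinase involved in TNF and stress signalling, had 17.9, 15.9 and 13.7 CPM in the controls of MC and 18.9, 14.3 and 13.2 CPM in MC. Its log2 fold changes were -0.03 in MC (95% interval -0.44 to 0.37), -0.07 in the libraries labelled HC (-0.33 to 0.18) and 0.23 in KMC (-0.72 to 1.18). The interval was narrowest in the HC comparison, where it had 30.8 and 27.9 CPM in the controls and 28.5, 27.0 and 28.0 CPM in the libraries labelled HC.

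Map4k3, also known as GLK and tied to amino acid sensing through mTORC1, had 22.3, 26.4 and 18.8 CPM in the controls of MC and 24.6, 26.1 and 26.6 CPM in MC. Its log2 fold changes were 0.19 (95% interval -0.14 to 0.53) in MC, -0.14 (-0.40 to 0.12) in the libraries labelled HC and 0.26 (-0.50 to 1.02) in KMC. Map4k5, also known as KHS, had 18.3, 14.5 and 20.1 CPM in the controls of MC and 16.1, 16.0 and 16.5 CPM in MC. Its log2 fold changes were -0.12 (95% interval -0.46 to 0.22), -0.21 (-0.50 to 0.08) and 0.08 (-0.69 to 0.85) in the same order. Its smallest adjusted p in the 3 edgeR comparisons was 0.456, in the libraries labelled HC.

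Map4k4, a kinase of cell motility and of the Hippo pathway upstream of LATS, had 113, 123 and 107 CPM in the controls of MC and 106, 95.3 and 99.9 CPM in MC. All MC libraries were below all controls by a log2 fold change of -0.19 (95% interval -0.46 to 0.08, adjusted p = 0.442). It had 207 and 206 CPM in the controls of HC and in the libraries labelled HC 190, 144 and 165 CPM, again with no overlap (-0.31, 95% interval -0.64 to 0.02, adjusted p = 0.333). In KMC (65.9 and 96.3 CPM) both values were above KC (56.8 and 57.0 CPM), with a log2 fold change of 0.51 (95% interval -0.38 to 1.41, adjusted p = 0.420).

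Over Map4k2, Map4k3, Map4k4, Map4k5 and Mink1, the 95% intervals reached from 0.728-fold to 1.45-fold in MC, from 0.641-fold to 1.56-fold in the libraries labelled HC and from 0.609-fold to 2.65-fold in KMC. Scaled by library size alone in place of TMM, the MC values of Map4k2 (0.25), Map4k4 (0.11), Map4k5 (0.23) and Mink1 (0.24) changed sign, while the median of all genes moved from -0.02 to 0.29 on the log2 scale.

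**Figure D3:**
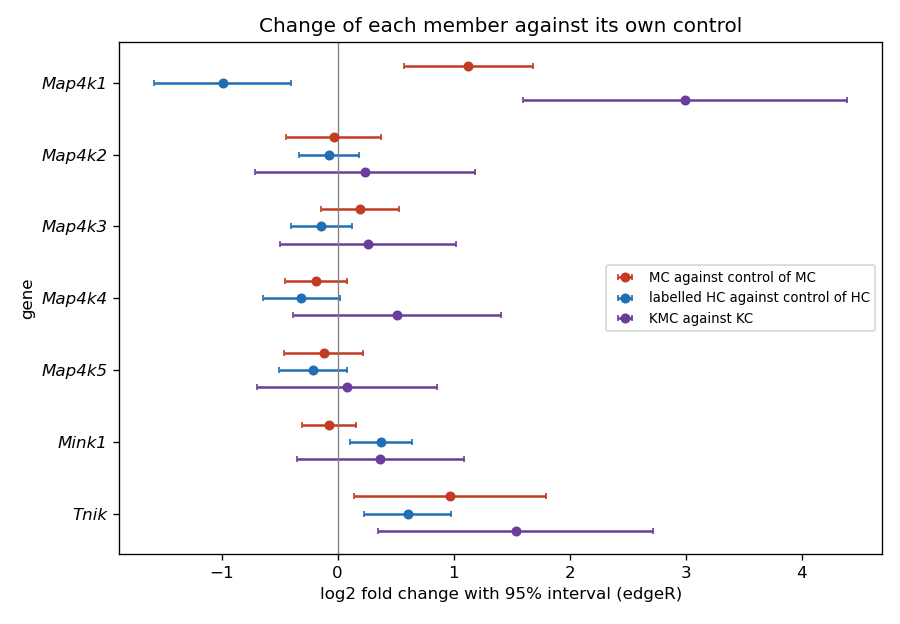
Log2 fold change of each member (horizontal axis) against its own control, as a point with its 95% interval from edgeR, in MC, in the libraries labelled HC and in KMC. Map4k1 lies at 1.13, -0.99 and 2.99, Tnik at 0.97, 0.60 and 1.53, and the intervals of Map4k2, Map4k3, Map4k4 and Map4k5 hold 0 in all 3 comparisons.

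Mink1, a kinase of the Map4k4 subfamily that acts in JNK and cytoskeleton signalling, had 57.9, 56.5 and 56.3 CPM in the controls of MC and 54.1, 50.3 and 57.8 CPM in MC (log2 fold change -0.07, adjusted p = 0.723). Its levels were 140 and 120 CPM in the controls of HC and in the libraries labelled HC 173, 169 and 162 CPM. The groups did not overlap, and the log2 fold change was 0.37 (SE 0.11, 95% interval 0.11 to 0.64, edgeR adjusted p = 0.195). In KC it had 24.2 and 25.2 CPM and in KMC 29.8 and 34.0 CPM, without overlap but with a wide interval (0.37, -0.35 to 1.09).

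Tnik, which binds TRAF2 and NCK and is a coactivator of Wnt target genes, was the paralogue with the largest log2 fold change in all 3 comparisons, and its groups did not overlap in any of them. Its values in the controls of MC were 0.859, 1.67 and 0.764 CPM (26, 56 and 17 counts) and in MC 1.79, 2.51 and 2.20 CPM (53, 107 and 89 counts), a log2 fold change of 0.97 (SE 0.35, edgeR adjusted p = 0.287). In the controls of HC it had 18.6 and 21.99 CPM, and in the libraries labelled HC 34.8, 31.1 and 26.5 CPM, a log2 fold change of 0.60 (SE 0.16, edgeR adjusted p = 0.157). In KC it had 0.817 and 1.39 CPM (12 and 36 counts), and in KMC 3.44 and 3.07 CPM (140 and 258 counts), a log2 fold change of 1.53 (SE 0.51, edgeR adjusted p = 0.136).

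None of these 3 values of Tnik passed after adjustment in edgeR, although all were above 0. DESeq2 called it in the libraries labelled HC (0.60, adjusted p = 0.0253) and not in MC (adjusted p = 0.170) or KMC (adjusted p = 0.0787). Without the control of MC replicate 2, the control with the highest Tnik, edgeR called it in MC (1.41, adjusted p = 0.0431), in a fit that called 6.9% of all genes. Without any other of the 6 libraries, edgeR did not call it (adjusted p from 0.259 to 0.704). Tnik levels were 18.6 to 34.8 CPM in the HC comparison and 0.764 to 3.44 CPM in all other libraries, a gap between separately deposited tables that was not tested.

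In the HC comparison, Tnik and Mink1 lay higher in the group with more stomach markers. Within the controls, replicate 1 had more of the stomach markers than replicate 2 (3117 against 1575 CPM). It had less Tnik (18.6 against 21.99 CPM) and more Mink1 (140 against 120 CPM). All 7 tested genes of the stomach list had log2 fold changes above 0 there (median 1.64), led by Gkn1 and Gkn2, which encode gastrokines of the stomach surface, at 2.43 and 2.77 (adjusted p = 0.0522 and 0.0642). Islet markers (6 of 6 above 0, median 0.74) and ductal markers (6 of 8 above 0, median 0.28) lay in the same direction as Tnik there, and leukocyte markers in the opposite one. In MC and KMC the stomach list had medians of 0.18 and -0.57, over 5 and 7 genes tested. In these 2 comparisons Tnik lay in the direction of the leukocyte markers (medians 0.96 and 2.62) and of the fibroblast markers (8 of 8 above 0 in each, medians 0.69 and 2.42). Smooth muscle markers also lay in that direction (medians 0.63 and 0.86). Acinar markers lay in the opposite one, with 30 of 36 and 36 of 37 below 0 (medians -0.53 and -1.97). Ductal markers had medians of 0.13 and 0.49 there, with 5 of 8 and 6 of 8 above 0. The fibroblast markers had a median of -0.45 in the HC comparison, opposite to Tnik. The part of RNA from these cell types in the Tnik and Mink1 differences was not tested.

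As a measure that no scaling enters, the share of each member in the summed RPKM of the 7 was taken within each library. Map4k1 made up 2.79% to 4.48% of the family in the controls of MC and 8.20% to 9.10% in MC, 5.73% to 7.41% in the controls of HC and 2.64% to 4.01% in the libraries labelled HC, and 1.33% to 3.22% in KC and 10.4% to 15.3% in KMC. None of these pairs of ranges overlapped, while by CPM 20.7%, 33.5% and 65.3% of all genes had no overlap in these comparisons. The shares of a library have a fixed sum, so that a rise in the share of any member in itself lowers those of the others. Mink1 took 29.2% to 32.9% in the controls of HC and 40.2% to 43.3% in the libraries labelled HC, while Map4k4 took 32.0% to 32.9% and 24.2% to 28.9%. In MC, Map4k4 took 36.3% to 37.4% against 40.2% to 42.9% in its controls. Tnik made up at most 2.64% of the family in any library.

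**Figure D4:**
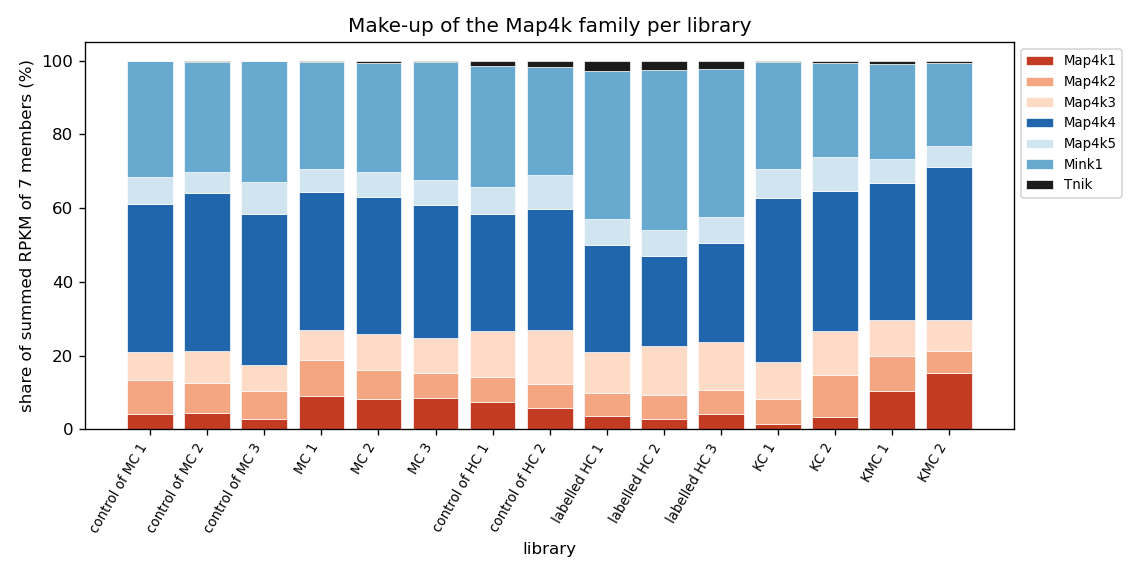
Share of each member in the summed RPKM of the 7 members (%), with 1 stacked bar per library, ordered by group. Map4k4 and Mink1 make up most of each bar, and Map4k1 runs from 1.33% in KC replicate 1 to 15.3% in KMC replicate 2.

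Whether M46 and HPK1 differed in their effects was tested as an interaction over the 11 libraries of both cerulein experiments, each group against its own control. Map4k1 was the only member called, with a difference of 2.11 on the log2 scale between the effect in MC and that in the libraries labelled HC (SE 0.35, 95% interval 1.35 to 2.88, edgeR adjusted p = 0.0262), among 2.49% of all genes called. Its sign and size rest on the HC labels, which Map4k1 goes against only if transgene reads were counted under it. The leukocyte markers had median log2 fold changes of opposite sign in these 2 experiments too (0.96 for MC, -0.87 for HC). So had the fibroblast markers (0.69 for MC, -0.45 for HC). The part of either in the interaction was not tested. Map4k1 lost the call (adjusted p from 0.0511 to 0.131) when MC replicate 2, the control of MC replicate 1, HC replicate 2, HC replicate 3 or the control of HC replicate 1 was left out, and with library size alone (0.0556), with values of 1.89 to 2.42. The 2 experiments also differed in age, in the kind of control (labelled B or wild type) and, by their labels, in the library kit. Acinar markers took 39.8% to 58.5% of counts in the MC experiment and 6.03% to 9.40% in the HC one. The 2 were also deposited separately. These differences cannot be told apart from the transgene.

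For the paralogues, the interaction was largest in size for Mink1, at -0.46 (SE 0.14, 95% interval -0.77 to -0.14, edgeR adjusted p = 0.109). DESeq2 called it, with an adjusted p of 0.0160, among 10.3% of all genes. With library size alone it was -0.083 (adjusted p = 0.897). The others were at 0.03 for Map4k2, 0.33 for Map4k3, 0.12 for Map4k4, 0.08 for Map4k5 and 0.35 for Tnik, with adjusted p from 0.336 to 0.951. The 95% interval of the Map4k2 difference was -0.45 to 0.51 and that of Tnik -0.47 to 1.17. Leaving out 1 library moved the Tnik difference to between 0.17, without the control of MC replicate 3, and 0.80, without the control of MC replicate 2.

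Other kinases of the pathway gave no call at an adjusted p of at most 0.05 by edgeR either. Among the other germinal centre kinases, 16 were tested in each comparison. At an unadjusted p under 0.05, MC had 3 above and none below 0, KMC had 4 above and none below, and the libraries labelled HC had 3 above and 2 below. Of all genes, 9.2% lay above and 5.46% below 0 by this rule in MC, against 8.39% above and 7.47% below in the HC comparison and 16.1% above and 9.48% below in KMC. Stk10, a lymphocyte-oriented kinase, had log2 fold changes of 0.79 in MC and 2.12 in KMC (adjusted p = 0.333 and 0.0821), and Stk4, the Hippo kinase MST1, 0.48 and 0.97 (adjusted p = 0.326 and 0.152). Myo3b, a myosin with a kinase domain, had -1.18 in the libraries labelled HC (adjusted p = 0.0834), and it had 1 count in each KC library, so that no fold is given for KMC.

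Of the p21-activated kinases, 5 were tested in each comparison. In MC none had an unadjusted p under 0.05, in the libraries labelled HC Pak4 had a log2 fold change of 0.31 and Pak6 of -0.46, and in KMC Pak1 had 2.31 (adjusted p = 0.0796). Among MAP3 kinases, which act below MAP4 kinases, 17 or 18 were tested. The JNK pathway kinase Map3k1 had log2 fold changes of 0.38 in MC and 1.012 in KMC (adjusted p = 0.234 and 0.168), Map3k8, which activates ERK, 0.58 and 2.01 (adjusted p = 0.328 and 0.131), and Map3k14, the NF-κB-inducing kinase, 1.77 in KMC (adjusted p = 0.0966). Map3k9 was at -0.41 in MC, and Map3k20 at -0.51 in the libraries labelled HC.

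The partners of HPK1 had 17 of 17 genes tested in each comparison. In MC, 5 had an unadjusted p under 0.05, all with log2 fold changes above 0, where 9.2% of all genes did so. Grap2, which encodes the adaptor GADS, was at 2.28 (adjusted p = 0.0840), Grap at 1.39 (0.0968) and Lat, the linker for activation of T cells, at 2.00 (0.155). In KMC, 10 lay above and 7 below 0, of which 5 and 1 had an unadjusted p under 0.05, against 16.1% and 9.48% of all genes. Lcp2, which encodes SLP-76, was at 2.58, Blnk, its B cell counterpart, at 2.01 and Grap2 at 2.86 (adjusted p = 0.0796, 0.0796 and 0.0932). In the libraries labelled HC, 14 lay below and 3 above 0, and those with an unadjusted p under 0.05 (7.47% of all genes were below 0 by this rule) were Lcp2 at -1.10 (adjusted p = 0.208) and Rasa1, which encodes RasGAP, at -0.34 (adjusted p = 0.254). Most of those named are also expressed in leukocytes, whose markers lay in the same directions, as did the fibroblast markers. The part of RNA from these cell types in the differences of the partners was not tested.

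The Hippo pathway downstream of MAP4K had 17 of 17 genes tested. In MC, none had an unadjusted p under 0.05. In the libraries labelled HC, 11 lay below and 6 above 0. An unadjusted p under 0.05 was found for 4 of those below (7.47% of all genes) and none above, among them Tead2 at -0.38, Sav1 at -0.29 and Tead1 at -0.25 (adjusted p = 0.167, 0.201 and 0.280). In KMC, 10 lay above and 7 below 0, of which 6 and 1 had an unadjusted p under 0.05 (16.1% and 9.48% of all genes), with the YAP target Ccn2 at 2.56 and Ajuba, a LATS inhibitor, at 1.69 (adjusted p = 0.103 and 0.117), and Tead2 at -1.46 (0.139). The striatin complex, which recruits MAP4K and MST kinases, had 10 of 10 tested, with Strip2 at 1.45 in MC (adjusted p = 0.303) and 2.23 in KMC (0.120), Cttnbp2nl at 2.02 in KMC (0.101) and Slmap at 0.24 in the libraries labelled HC (0.285).

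The genes whose profile over the 15 libraries was nearest to that of Map4k1 were Hvcn1, Tmem156, Syk, Il7r and Csf1r. Likeness was the root mean square difference of log2 CPM, each gene centred on the mean of its count table, among 13655 genes. These 5 differed from Map4k1 by 0.20 to 0.22 on the log2 scale, while the median gene differed by 1.02. Syk is a tyrosine kinase of B cells and myeloid cells, Il7r encodes the receptor of interleukin 7 and Csf1r that of macrophage colony-stimulating factor. Of the other members, Tnik was the nearest to Map4k1, at 0.71, and Map4k2, Map4k3, Map4k4, Map4k5 and Mink1 were at 0.88 to 0.97.

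**Figure D5:**
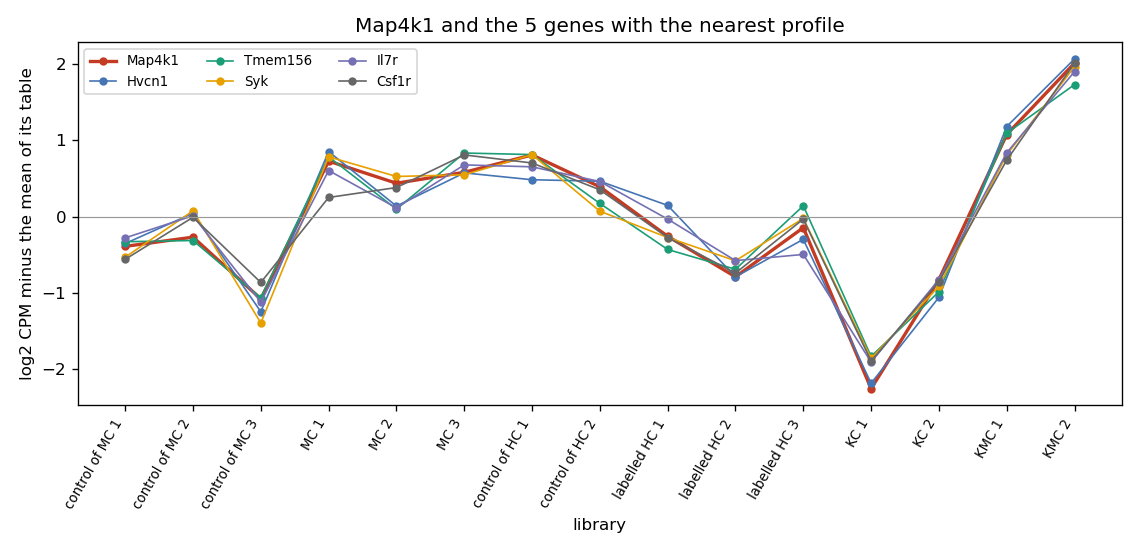
Log2 CPM minus the mean of its count table for Map4k1 and its 5 nearest genes (vertical axis) in the 15 libraries, ordered by group. The 5 genes were chosen for their likeness to Map4k1 in these libraries, so that lines running together follow from the choice. Map4k1 runs from -2.26 in KC replicate 1 to 2.01 in KMC replicate 2.

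Map4k2 was nearest to Bcl11a and Ogt (0.09 each), Map4k3 to Extl2 and Sin3a (0.08 each), Map4k4 to Plekhm2 (0.06), Map4k5 to Zbtb38 and Trim33 (0.08 each) and Mink1 to Tmem94 (0.08) and Wipf2 (0.09). Tnik was nearest to Plekhs1 and Pof1b (0.17 each), with a median gene at 0.67. The members Map4k2, Map4k3, Map4k4, Map4k5 and Mink1 differed from each other by 0.21 to 0.28, and their own standard deviations over the libraries were 0.16 to 0.25, against 0.63 for Tnik and 1.03 for Map4k1.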

How the data were processed

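Pancreas RNA was pooled from 3 mice per library and sequenced in 15 libraries. The authors aligned reads to GRCm38, and the deposited values are unnormalized read counts for each gene, in 3 tables. The submitters' processing notes list bcl2fastq 2.17.14, STAR 2.6.1a, HTSeq 0.6.1 and DESeq2, with no roles given. The labels name a KAPA stranded mRNA kit for HC, KC and KMC and a standard Illumina one for MC. A further table of the authors' own comparison of MC with its control (fold changes and p-values) was not used.

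Genes were filtered with filterByExpr, scaled by TMM and tested with edgeR 4.0.16 (quasi-likelihood, R 4.3.3), with Benjamini-Hochberg adjustment over all genes of a comparison and a call at an adjusted p of at most 0.05. The study also asked for a change of 1 or more on the log2 scale. Each standard error is the coefficient over the root of its F statistic. DESeq2 1.42.0, other scalings, filters and fits, the replicate number as a block and leaving out each library were alternatives. RPKM used merged exon lengths from GENCODE M21. The fit was tested on simulated data. P-values measure only the spread between pooled libraries.

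The members and lists were chosen with earlier results of these data known. Named genes were the 7 members, the 3 genes with the smallest p of each pathway list in each comparison plus any called, Ptprc and the first 2 genes of a marker list, and the nearest profiles (5 for Map4k1, 2 for each other member). Not all genes that this rule admits are printed. The further allele of KC and KMC, the planned comparison that rests on it and 1 nearest-profile gene are not reported here.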

Additional observations from a re-analysis of the deposited data

Results flagged for a closer look

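Map4k1 was higher in all 3 MC libraries than in their controls and lower in all 3 libraries labelled HC than in theirs. The lower level goes against the HC label only if transgene reads were counted under Map4k1, which is not stated. The difference between the experiments was itself tested, as the effect in MC minus that in the libraries labelled HC. It was 2.11 on the log2 scale (edgeR adjusted p = 0.0262). Among its alternatives the adjusted p lay between 2.95e-06 and 0.131. No group had the 4 libraries that a check for single outlying samples needs.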

How the results depend on the processing

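Group sizes of 2 or 3 pooled libraries limit these results.

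By DESeq2, Map4k1 was called in MC (1.13), in the libraries labelled HC (-0.998) and in KMC (2.98), genes called were 620, 1239 and 2159, and 1 other member was called in the libraries labelled HC. The interaction of M46 with HPK1 then had 2 members called and Map4k2 at -0.0077. With DESeq2 size factors in edgeR, that Map4k2 difference was -0.0052. With library size alone, 1 gene was called in MC. In KMC, 4714 of the 15733 genes tested were called, and the median of all genes lay at 1.47 on the log2 scale. Map4k1 (4.46) and 3 other members were among those called there. No member was called in the interaction, and the Map4k1 interaction was 2.42 (not called). In MC, Map4k2, Map4k4, Map4k5 and Mink1 were at 0.25, 0.11, 0.23 and 0.24. With no filter, 679 genes were called in the libraries labelled HC and 9 in KMC, and with the stricter filter 0 in KMC (3153 at an unadjusted p under 0.05), where Map4k1 could not be fitted for its 8 counts in KC replicate 1. In a single fit of the libraries labelled HC, their controls, KC and KMC, 1 gene was called in the libraries labelled HC. In KMC, 4026 of the 18681 genes tested were called, among them Map4k1 (2.996) and 1 other member.

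The replicate numbers were not taken to pair the libraries, since no label ties a number to a shared batch. Same-numbered deviations correlated at 0.07, 0.30 and -0.30 in MC, where not every library correlated best with its own number. Over the 2 shared numbers they correlated at 0.19 and 0.17 in the HC comparison and at 0.051 in KMC. With the numbers as a replicate block, Map4k1 was called in the libraries labelled HC (-1.14, in a fit that leaves out HC replicate 3) and in KMC (3.11), and genes called were 627 and 2464. In the block no member other than Map4k1 changed its call.

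Leaving out 1 library at a time, genes called ranged from 0 to 975 in MC, 0 to 515 in the libraries labelled HC and 0 to 2312 in KMC. Other members called ranged from 0 to 1 in MC. Map4k1 ranged from 0.94 to 1.28 in MC and from 2.46 to 3.98 in KMC, the Map4k1 interaction from 1.89 to 2.30, and members called in the M46 and HPK1 interaction from 0 to 1. Values that changed sign ranged from -0.19 to 0.066 for Map4k2 in MC, and from -0.18 to 0.81 for Map4k2 and -0.14 to 0.34 for Map4k5 in KMC. In the M46 and HPK1 interaction they ranged from -0.14 to 0.13 for Map4k2 and -0.088 to 0.23 for Map4k5. The cause of these changes was not tested.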
